A study of Homo sapiens with 12 samples.

Results

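The genes described here form the PI3K, AKT, mTOR and FOXO pathway. They are 37 named genes of the 25369 rows in each deposited table. The rule was their names and not a measured value, but the list was drawn up with earlier results of these data known. It holds PI3K subunits, lipid phosphatases, AKT with its activating kinase and phosphatases, and GSK3 and FOXO. The TSC and mTOR complexes, the Rag GTPases and the targets of mTORC1 complete it. All 37 were found in both tables. In B cells, PI3K is switched on below the B cell receptor and its co-receptors and makes the lipid PIP3, which recruits AKT to the membrane. AKT then phosphorylates FOXO factors, which leave the nucleus, as well as GSK3 and the TSC complex, whose inhibition lets RHEB activate the kinase complex mTORC1 at the lysosome. Tonic or chronic signalling through this route is a known feature of diffuse large B cell lymphoma.

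RNA was sequenced from 2 established lymphoma lines, TMD8 of the activated B cell-like (ABC) type and OCI-Ly7 of the germinal centre B cell-like (GCB) type. Every library, also at day 0, came from cells carrying a doxycycline-inducible guide RNA (sgRNA) against PRMT5, the main enzyme for symmetric arginine dimethylation. Cells had 0, 3 or 6 days of doxycycline at 20 ng/ml, and each of the 6 groups held 2 libraries; no group with a guide against another target was used here, so effects of doxycycline and of time in culture cannot be told apart from those of the guide. Values are FPKM (fragments per kilobase of transcript, relative to all fragments of the library), a level per gene length, and the labels do not say whether the 2 libraries of a group came from separate cultures, so p-values measure only the spread between these libraries.

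The targeted gene PRMT5 fell by 1.04 on the log2 scale in OCI-Ly7 at day 6 (SE 0.13, limma adjusted p = 0.0345), from 37.9 and 46.9 to 21.0 and 19.2 FPKM. In TMD8 it stood at 64.8 and 60.5 FPKM on day 0, 41.3 and 42.0 on day 3 and 49.6 and 54.7 on day 6, lowest at day 3. As given it fell by day 3 (-0.58, adjusted p = 0.0212) and less by day 6 (-0.26, adjusted p = 0.0262). After scaling between libraries neither passed (-0.28 and 0.10, adjusted p = 0.147 and 0.201), and it rose from day 3 to day 6 (0.37, adjusted p = 0.021). That scaling, named median-ratio scaling below, sets the libraries of a line to a common median, taken over the ratios of each gene to its geometric mean. It matters here because the median of all tested genes moved by -0.31 in TMD8 and by -0.13 in OCI-Ly7 from day 0 to day 6 on FPKM as given, while the 45S pre-ribosomal RNA row went from 5222 and 7950 FPKM to 20280 and 17581 in TMD8 and from 11163 and 10374 to 16130 and 20185 in OCI-Ly7. Libraries held 10092 to 11021 genes at an FPKM of at least 1, and the relative depth of the day 6 libraries was 0.57 to 0.61 of the first day 0 library in TMD8 and 0.77 to 0.8 in OCI-Ly7. Of 6 B cell markers, 5 in TMD8 and 6 in OCI-Ly7 had a mean of at least 1 FPKM, and the summed T and NK cell markers reached at most 0.341 and 1.52 FPKM. Myeloid markers summed to 40.0 to 67.0 FPKM in TMD8 and 1.34 to 2.55 in OCI-Ly7, with 1 of 8 at a mean of at least 1 in each, and stromal and epithelial markers to 1.28 to 2.05 (0 of 8) and 11.7 to 13.8 FPKM (3 of 8); their part in the results was not tested. At day 0 the activated B cell-like markers summed to 870 to 947 FPKM in TMD8 and to 416 to 430 in OCI-Ly7. Of the germinal centre B cell-like markers, 3 of 8 stayed under 1 FPKM in every library of each line, and their summed level at day 0 was 30.3 to 31.2 FPKM in OCI-Ly7 and 44.9 to 62.8 FPKM in TMD8. In bulk libraries, fewer cells of one state and less RNA per cell cannot be told apart.

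Before induction, the transcripts of PI3K delta, of the BCAP adaptor, of RRAGA and of EIF4EBP1 were among the most abundant of the pathway, per gene length, in both lines. AKT1 ranked below these in each. PIK3CD, the catalytic subunit p110 delta that dominates in leukocytes, stood at 55.0 and 50.6 FPKM in TMD8 and at 59.0 and 56.3 FPKM in OCI-Ly7. The 3 other catalytic genes were lower: PIK3CA 4.48 and 8.13, PIK3CB 5.86 and 3.35, and PIK3CG 3.69 and 11.4 mean FPKM in TMD8 and OCI-Ly7. In order of mean FPKM, TMD8 led with PIK3AP1 (60.3), RRAGA (54.1), PIK3CD (52.8), GSK3A (49.7) and EIF4EBP1 (47.6), and from RRAGA down to EIF4EBP1 neighbours in this order were not separated in both libraries. OCI-Ly7 led with PIK3CD (57.6), INPPL1 (54.4), RHEB (52.0), EIF4EBP1 (48.1), RRAGA (43.7), PIK3AP1 (43.4) and AKT1 (43.0), of which only AKT1 lay above its next gene (GSK3A, 26.9) in both libraries. FOXO3 and DEPTOR, an mTOR inhibitor (0.123 and 0.403 mean FPKM at day 0), were under 1 FPKM on average in both lines, and INPP4B and PHLPP2 also in OCI-Ly7; these were not tested there.

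Of 33 members tested in both lines, 17 were higher in both TMD8 libraries of day 0 than in both OCI-Ly7 libraries and 14 were higher in OCI-Ly7, against 44.2% and 42.9% of all 9688 genes. The tables of the lines were normalized separately, so this is a description. TMD8 had more of RPS6KB2, an S6 kinase (36.9 against 11.5 mean FPKM), of the regulatory subunit PIK3R2 (10.2 against 4.21), of INPP5D, the SHIP1 phosphatase that dephosphorylates PIP3 (17.6 against 7.92), and of MTOR (17.1 against 9.62). INPP4B, a phosphatase acting on the product of SHIP1, stood at 1.63 and 1.52 FPKM in TMD8 and at 0 and 0.03 in OCI-Ly7. OCI-Ly7 had more of PIK3CG, the p110 gamma subunit (11.4 against 3.69), of RHEB, the GTPase that activates mTORC1 (52.0 against 17.6), of FOXO1, the main FOXO factor of B cells (7.96 against 3.02), and of INPPL1, the SHIP2 phosphatase (54.4 against 24.7). The plot of day 0 levels shows every library.

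**Figure D1:**
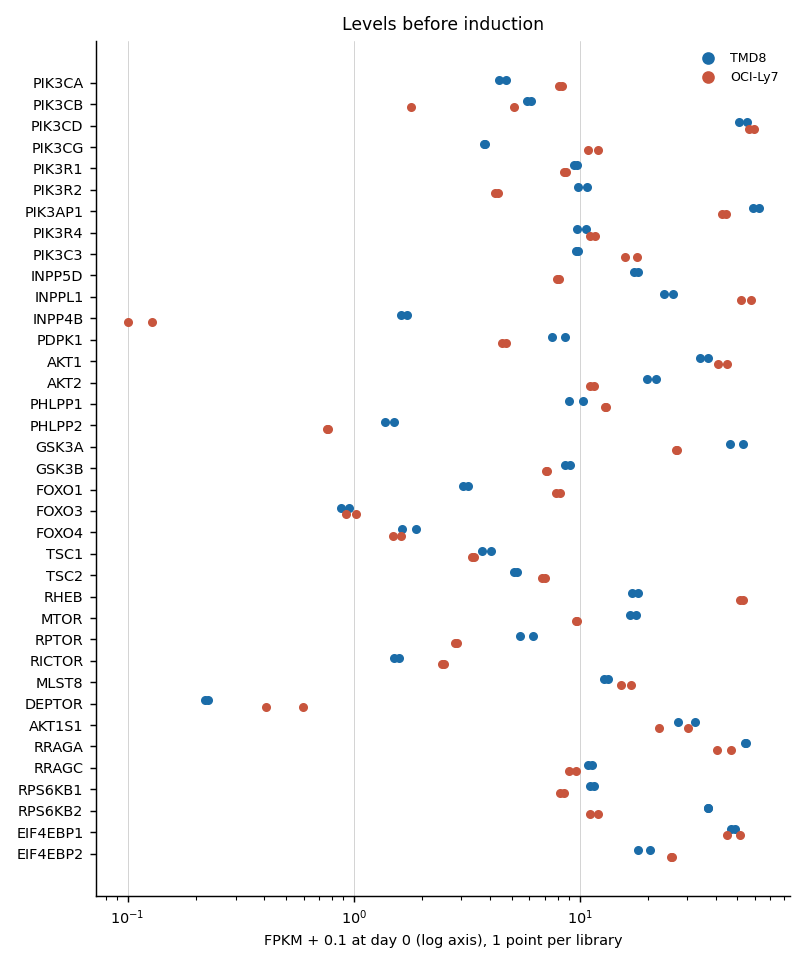
FPKM + 0.1 at day 0 on a log axis for the 37 pathway genes, with 1 point per library (blue TMD8, red OCI-Ly7). PIK3CD lies close together in both lines, whereas FOXO1, RHEB and PIK3CG lie to the right in OCI-Ly7 and RPS6KB2, INPP5D and INPP4B in TMD8.

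After 6 days of doxycycline, pathway transcripts were mostly lower in TMD8, as were most other transcripts of that line. In TMD8, 25 of 35 tested members fell and 1 rose on FPKM as given (limma, adjusted p under 0.05), against 51.7% of all 10456 tested genes lower and 3.89% higher. Their median change was -0.37, beside -0.31 over all genes. Both day 6 libraries lay below both of day 0 for 30 of 35 members, beside 7671 of all 10456 genes. They lay above for 1 member and 824 of all genes. At day 3 both libraries lay below both of day 0 for 29 members and 8766 of all genes. Separation of the libraries was thus common in this line. After median-ratio scaling 4 fell and 3 rose, with 28.9% of all genes called. PIK3R1, GSK3B, FOXO1 and RPS6KB1 fell and INPP4B rose under both scalings, a rule that 13.5% and 3.81% of all genes met. With the replicate block added to the scaling, PIK3R1, GSK3B and FOXO1 no longer passed (adjusted p = 0.063, 0.091 and 0.0605); INPP4B and RPS6KB1 did (adjusted p = 0.0424 and 0.0314), although INPP4B failed with the block as given (adjusted p = 0.0593). In OCI-Ly7, 3 of 33 tested members fell (PIK3R1, PIK3AP1 and GSK3B) and 1 rose (AKT1S1), the same 4 under both scalings, against 9.39% of all 11016 genes lower and 1.98% higher as given, and 7.42% and 1.98% under both. With the block GSK3B failed as given and scaled (adjusted p = 0.0535 and 0.0617) and PIK3R1 scaled (adjusted p = 0.0521). After scaling alone 7 of 33 passed, with 14.8% of all genes. The median change there was -0.21, beside -0.13, on FPKM as given. Both day 6 libraries of OCI-Ly7 lay below both of day 0 for 21 of 33 members, beside 5353 of all 11016 genes. They lay above for 7 members and 2281 of all genes. Fewer calls in OCI-Ly7 are in themselves no sign of smaller changes.

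**Figure D2:**
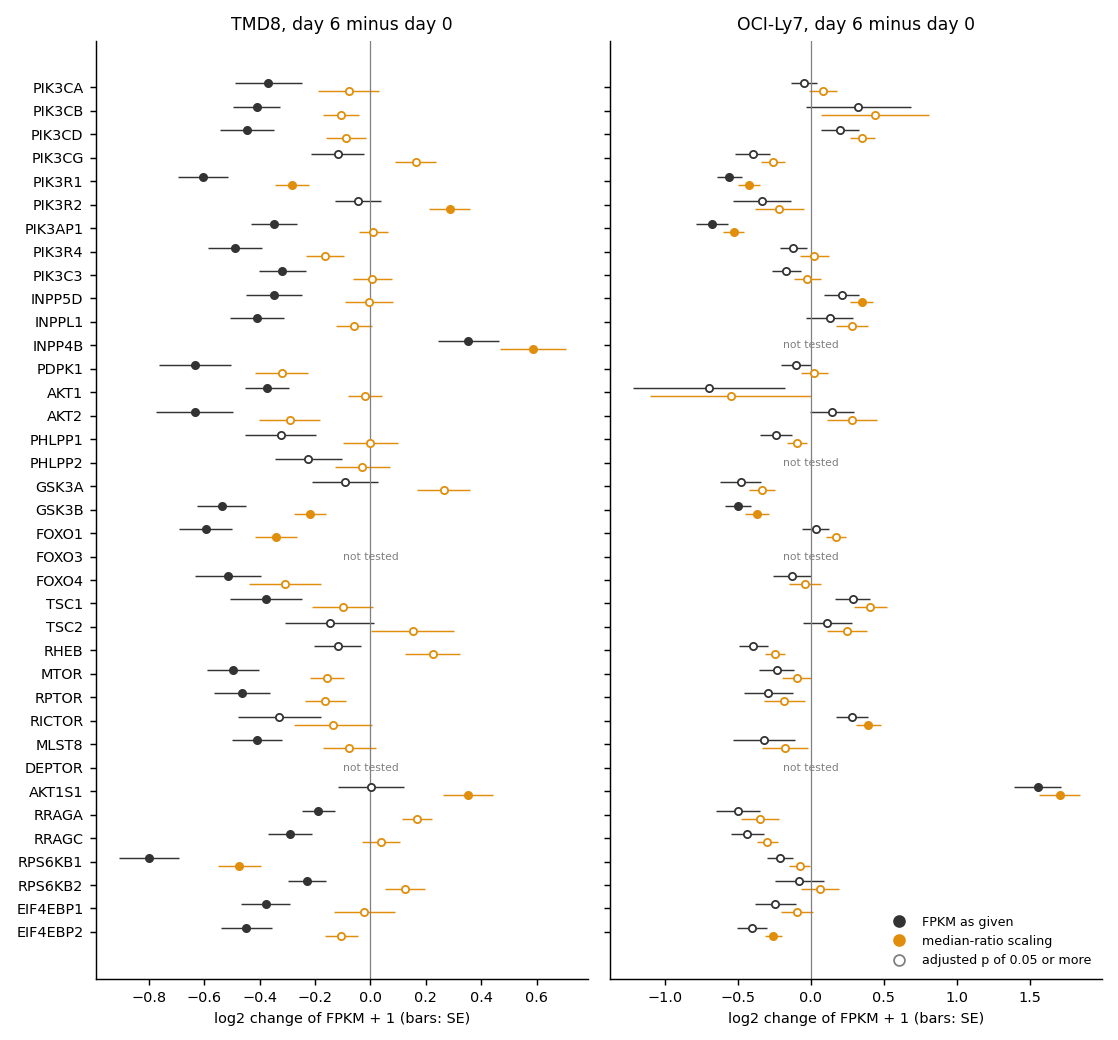
Log2 change of FPKM + 1 from day 0 to day 6 for each pathway gene in TMD8 (left) and OCI-Ly7 (right), with SE bars; black is FPKM as given, orange is after median-ratio scaling, and open circles have an adjusted p of 0.05 or more. In TMD8 the black points lie mostly below 0 and the orange ones around it, with RPS6KB1 lowest (-0.80 as given, -0.47 scaled); in OCI-Ly7 AKT1S1 stands apart at 1.55.

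Among the catalytic subunits, PIK3CD stood in TMD8 at 55.0 and 50.6 FPKM on day 0, 38.0 and 40.1 on day 3 and 35.3 and 42.0 on day 6. Both libraries of either later day lay below both of day 0. The day 6 change was -0.45 (SE 0.098, adjusted p = 0.0121) as given and -0.09 (adjusted p = 0.38) after scaling. In OCI-Ly7 PIK3CD stood at 59.0 and 56.3 FPKM on day 0, 63.2 and 50.2 on day 3 and 65.7 and 67.3 on day 6. The day 6 libraries lay above those of day 0, but the change of 0.20 (adjusted p = 0.317) did not pass, nor did 0.35 after scaling (adjusted p = 0.05, not under the threshold). PIK3CA and PIK3CB fell in TMD8 as given (-0.37 and -0.41, adjusted p = 0.0414 and 0.00997) and not after scaling (-0.08 and -0.11, adjusted p = 0.599 and 0.252). PIK3CG did not pass in TMD8 (-0.12, adjusted p = 0.324) or OCI-Ly7 (-0.40, adjusted p = 0.078). PIK3CB in OCI-Ly7 rested on day 0 libraries far apart (5.01 and 1.69 FPKM), with an SE of 0.36. The antisense PIK3CD-AS1 and the gene CLSTN1 overlap PIK3CD on the other strand, and whether counting used strand is not given in the sources used here.

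PIK3R1, which encodes the p85 alpha regulatory subunit that stabilises and restrains the catalytic subunits, fell in both lines under both scalings. In TMD8 it stood at 9.65 and 9.35 FPKM on day 0, 8.28 and 7.64 on day 3 and 5.54 and 6.28 on day 6. OCI-Ly7 showed 8.41 and 8.58, then 7.95 and 7.68, then 5.46 and 5.45 FPKM. In each line the libraries of the 3 days did not overlap and day 6 was lowest. Day 6 lay wholly below day 0 for many other genes of each line as well, with the shares given above. The day 6 change was -0.61 in TMD8 (SE 0.09, adjusted p = 0.00405; scaled -0.28, adjusted p = 0.0266) and -0.56 in OCI-Ly7 (SE 0.086, adjusted p = 0.0345; scaled -0.42, adjusted p = 0.0324). In fits that each left out 1 library the TMD8 call held in 6 of 6 as given and in 3 of 6 after scaling, failing without either day 0 or the first day 6 library. The OCI-Ly7 calls of PIK3R1, PIK3AP1 and GSK3B each held in 2 of 6 as given, failing without any library of day 0 or day 6 (PIK3R1 changes of -0.57 to -0.54, adjusted p up to 0.253), and in 0 of 6 after scaling. PIK3R1 and GSK3B were the 2 members lower in both lines under both scalings, which 0.702% of 9688 genes were; as given PIK3AP1 joined them (5.19% of genes). Their promoters are shown because the pair shares this pattern: the 250 bases before the most upstream RefSeq start of each gene, GRCh38.p14, 5′ to 3′ on the strand of the gene, PIK3R1 at chr5:68215506-68215755 (+) and GSK3B at chr3:120094448-120094697 (-).
PIK3R1: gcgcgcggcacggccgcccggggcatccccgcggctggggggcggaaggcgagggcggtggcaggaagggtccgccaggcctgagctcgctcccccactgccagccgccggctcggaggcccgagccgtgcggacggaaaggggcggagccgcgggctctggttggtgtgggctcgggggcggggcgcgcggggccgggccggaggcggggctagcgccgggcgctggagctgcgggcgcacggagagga
GSK3B: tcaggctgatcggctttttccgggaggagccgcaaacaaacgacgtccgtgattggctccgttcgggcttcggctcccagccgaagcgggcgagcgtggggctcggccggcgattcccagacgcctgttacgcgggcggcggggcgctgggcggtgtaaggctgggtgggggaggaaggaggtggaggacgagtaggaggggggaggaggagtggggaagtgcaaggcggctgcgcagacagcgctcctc
The 300-base windows of these starts, with 50 further bases, had a GC content of 80.0% for PIK3R1 and 69.3% for GSK3B, and neither held either of the motifs searched below, so nothing is in capitals.

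PIK3AP1 encodes BCAP, the adaptor that links the B cell receptor to PI3K. In OCI-Ly7 it stood at 42.5 and 44.3 FPKM on day 0, 39.8 and 36.9 on day 3 and 28.5 and 25.2 on day 6. All 3 days were apart, day 6 lowest, and the day 6 change was -0.68 (SE 0.11, adjusted p = 0.0345) as given and -0.53 (adjusted p = 0.0268) after scaling. In TMD8 it stood at 62.1 and 58.5, then 53.3 and 50.6, then 44.2 and 50.3 FPKM. Those days 0 and 6 did not overlap; the change of -0.35 (adjusted p = 0.0147) came to 0.01 (adjusted p = 0.904) after scaling. PIK3R2, the p85 beta subunit, changed by -0.05 at day 6 in TMD8 as given (limma, adjusted p = 0.663). After scaling it rose (0.29, adjusted p = 0.0399). Days 0 and 6 overlapped on FPKM as given and not on scaled values (8.87 and 8.56, then 11.2 and 10.5). Day 3 was highest, at 11.7 and 12.8 FPKM (scaled 12.2 and 13.7). Its change from day 0 did not pass in limma as given (0.24, adjusted p = 0.0585) or scaled (0.52, adjusted p = 0.0945). The class III kinase PIK3C3 (VPS34) and its partner PIK3R4, which act in endosome traffic and autophagy, fell in TMD8 as given (-0.32 and -0.49, adjusted p = 0.0218 and 0.00866) and not after scaling (0.01 and -0.16, adjusted p = 0.951 and 0.127); in OCI-Ly7 neither passed (-0.17 and -0.12).

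Of the lipid phosphatases, INPP4B was the only tested member that rose in TMD8 on FPKM as given. It stood at 1.63 and 1.52 FPKM on day 0, 1.29 and 1.35 on day 3 and 2.52 and 2.07 on day 6. The day 6 libraries were above all others. The change from day 0 was 0.35 (SE 0.11, adjusted p = 0.0344; scaled 0.59, adjusted p = 0.0205) and from day 3 0.51 (adjusted p = 0.0465; scaled 0.56, adjusted p = 0.04). The day 3 call was lost as given in each of 6 fits without 1 library (changes of 0.41 to 0.60, adjusted p up to 0.185). The call against day 0 held in 1 of 6 fits that each left out 1 library, failing without either day 0 or either day 3 library and without the first day 6 library (changes of 0.26 to 0.45). INPP5D stood in TMD8 at 18.0 and 17.3 FPKM on day 0, 15.0 and 17.1 on day 3 and 12.6 and 14.7 on day 6, and in OCI-Ly7 at 7.98 and 7.85, then 7.93 and 6.38, then 9.36 and 9.28. Day 6 was thus lowest in TMD8 and highest in OCI-Ly7, while the mean of day 3 lay below that of day 0 in both lines. It fell in TMD8 as given (-0.35, adjusted p = 0.0296; scaled -0.01, adjusted p = 0.967) and rose in OCI-Ly7 only after scaling (0.21, adjusted p = 0.258; scaled 0.35, adjusted p = 0.046). INPPL1 fell in TMD8 as given (-0.41, adjusted p = 0.0154; scaled -0.06, adjusted p = 0.51) and did not pass in OCI-Ly7 (0.13, adjusted p = 0.588).

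AKT1, the most abundant AKT transcript per length in both lines at day 0, stood in TMD8 at 36.9 and 33.9 FPKM on day 0, 26.3 and 28.2 on day 3 and 26.1 and 28.1 on day 6. Both later days lay below day 0 by a similar amount. The day 6 change was -0.37 (SE 0.079, adjusted p = 0.0105) as given and -0.02 (adjusted p = 0.818) after scaling. In OCI-Ly7 AKT1 stood at 44.8 and 41.1 FPKM on day 0, 45.2 and 33.8 on day 3 and 14.1 and 47.6 on day 6. The day 6 libraries lay on either side of all others, so the change of -0.70 (SE 0.52, adjusted p = 0.386) became 0.15 without the first day 6 library (adjusted p = 0.664). In the same line EIF4A1, a translation initiation factor, was listed at 540 and 591 FPKM on day 0 and 370 and 427 on day 3. On day 6 it was listed at 39.0 and 0 FPKM, lowest in the second library, whereas AKT1 was lowest in the first. Whether the 14.1 FPKM of AKT1 is its level was not tested. AKT2 and PDPK1, the kinase that phosphorylates AKT in its activation loop, fell in TMD8 as given (both by 0.64 on the log2 scale, adjusted p = 0.0128 and 0.00862) and missed the threshold after scaling (-0.29 and -0.32, adjusted p = 0.11 and 0.0554). The phosphatases PHLPP1 and PHLPP2, which act on AKT, did not pass at day 6 in TMD8 (-0.33 and -0.22, adjusted p = 0.0817 and 0.139). In OCI-Ly7 AKT2 (0.14, adjusted p = 0.534), PDPK1 (-0.10, adjusted p = 0.523) and PHLPP1 (-0.24, adjusted p = 0.201) did not pass. PDPK1 and FOXO3 each have a near-identical copy in the genome, between which the counting could split reads.

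GSK3B, a kinase inhibited by AKT, fell in both lines under both scalings. In TMD8 it stood at 9.002 and 8.53 FPKM on day 0, 6.93 and 6.86 on day 3 and 5.38 and 6.09 on day 6. OCI-Ly7 showed 7.02 and 7.10, then 6.83 and 6.45, then 4.56 and 4.85 FPKM. The 3 days did not overlap in either line. The day 6 change was -0.54 in TMD8 (SE 0.087, adjusted p = 0.00502; scaled -0.22, adjusted p = 0.0432) and -0.50 in OCI-Ly7 (SE 0.091, adjusted p = 0.0367; scaled -0.37, adjusted p = 0.0443). The TMD8 call held in 6 of 6 fits without 1 library as given and in 0 of 6 after scaling (changes of -0.25 to -0.19, adjusted p of 0.0537 to 0.203). Its paralog GSK3A did not pass in TMD8 (-0.09, adjusted p = 0.521) or OCI-Ly7 (-0.48, adjusted p = 0.0738), and in TMD8 the ratio of GSK3A to GSK3B in FPKM went from 5.88 and 5.44 at day 0 to 7.91 and 8.31 at day 6.

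FOXO1 fell in TMD8 and did not pass in OCI-Ly7. In TMD8 it stood at 3.11 and 2.94 FPKM on day 0, 2.34 and 2.36 on day 3 and 1.56 and 1.77 on day 6, each day below the one before. OCI-Ly7 showed 7.80 and 8.12, then 8.28 and 7.64, then 8.22 and 8.12 FPKM, and all 3 days overlapped. The TMD8 change at day 6 was -0.60 (SE 0.095, adjusted p = 0.00483) as given and -0.34 (adjusted p = 0.0262) after scaling, and on FPKM the mean fell from 3.02 ± 0.12 to 1.66 ± 0.15 (SD, n = 2). Leaving out 1 library kept the call in 6 of 6 fits as given and in 3 of 6 after scaling, which failed without either day 0 or the first day 6 library. In OCI-Ly7 it was 0.03 (adjusted p = 0.82) and 0.17 (adjusted p = 0.143). FOXO4 fell in TMD8 as given (-0.51, adjusted p = 0.0154; scaled -0.31, adjusted p = 0.136) from a mean of 1.66 to 0.865 FPKM, and FOXO3 was listed at 0.814 and 0.434 mean FPKM on the same days, under the level tested. The promoters of FOXO1, the FOXO gene that passed under both scalings, and of FOXO4, whose window held a FOXO motif, are shown from RefSeq, GRCh38.p14. For FOXO1 these are the 250 bases before the start (chr13:40666642-40666891, -). For FOXO4 a run of 30 bases is given (chrX:71095862-71095891, +) with the motif GTAAACA in capitals, 24 bases into the transcript.
FOXO1: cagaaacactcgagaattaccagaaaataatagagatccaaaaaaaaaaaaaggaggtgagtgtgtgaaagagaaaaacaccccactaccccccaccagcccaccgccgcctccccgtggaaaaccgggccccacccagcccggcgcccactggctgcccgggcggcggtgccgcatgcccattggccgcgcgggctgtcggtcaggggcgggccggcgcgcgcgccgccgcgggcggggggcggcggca
FOXO4: ccccggcgagtgGTAAACAgagacgtcagg
Of the 37 members, 32 matched the RefSeq table with 51 windows of 300 bases around their starts, from 250 before to 50 after. The FOXO motif GTAAACA, searched on both strands, was in 2 of the 51, at PIK3CA and FOXO4 (3.92%), beside 3.42% of all 35116 windows. The E-box CACGTG, its own reverse complement, bound by MYC and TFEB among others, was in 4 windows, of RRAGC, INPP4B, PIK3AP1 and TSC2 (7.84% beside 7.26%). The 2 motifs share no overlap, and a match is only a match of letters.

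**Figure D3:**
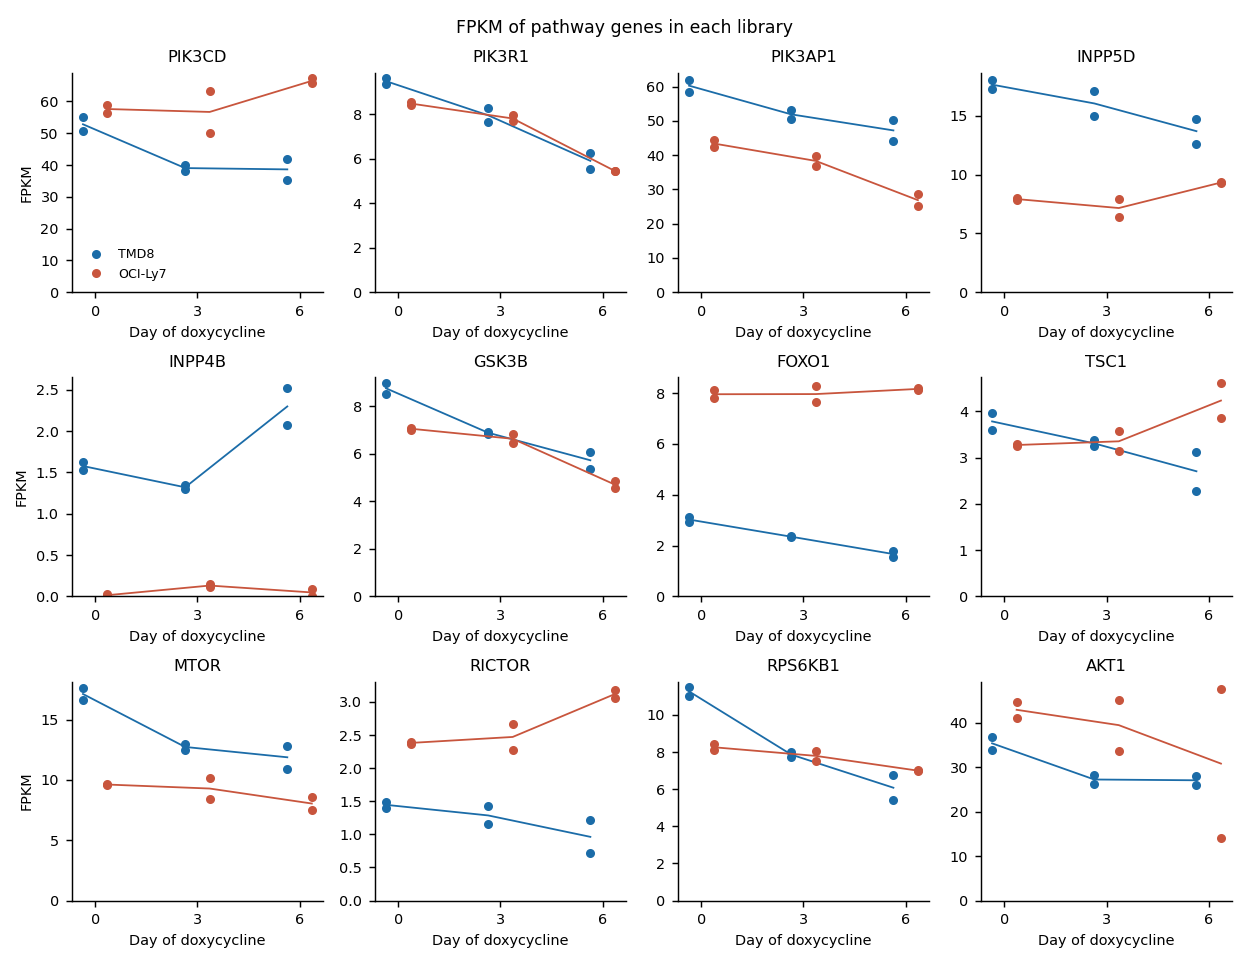
FPKM of 12 pathway genes by day of doxycycline, with 1 point per library and lines through the means (blue TMD8, red OCI-Ly7; points are set slightly apart by line). Values are FPKM as given. PIK3R1 and GSK3B go down in both lines, whereas FOXO1, PIK3CD and INPP5D go down in TMD8 and not in OCI-Ly7. After median-ratio scaling the TMD8 changes of PIK3CD and INPP5D at day 6 were -0.09 and -0.005 and did not pass, unlike that of FOXO1. The AKT1 panel shows the single low OCI-Ly7 library of day 6 (14.1 FPKM).

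TSC1, the scaffold of the complex that inhibits RHEB, stood in TMD8 at 3.96 and 3.61 FPKM on day 0, 3.24 and 3.37 on day 3 and 2.28 and 3.13 on day 6. OCI-Ly7 showed 3.24 and 3.30, then 3.57 and 3.14, then 3.85 and 4.62 FPKM. Day 6 was below day 0 in TMD8 and above it in OCI-Ly7, without overlap. Only the TMD8 fall as given passed (-0.38, SE 0.13, adjusted p = 0.0486; scaled -0.10, adjusted p = 0.498); the OCI-Ly7 change was 0.29 (adjusted p = 0.152). TSC2 passed in neither line (-0.15 and 0.11), and it overlaps NTHL1 and PKD1. In all, 10 members overlap another listed protein-coding gene. TSC1 (with GFI1B), MTOR (with ANGPTL7) and RICTOR (with OSMR) are among them, each on the opposite strand. FOXO1 overlaps the noncoding LINC00598 on its own strand. What part these overlaps had in the values was not tested. RHEB did not pass in TMD8 (-0.12, adjusted p = 0.265) and stood in OCI-Ly7 at 52.8 and 51.1 FPKM at day 0 and at 41.4 and 37.3 at day 6, a change of -0.39 (adjusted p = 0.0643).

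MTOR stood in TMD8 at 17.7 and 16.6 FPKM on day 0, 13.0 and 12.5 on day 3 and 10.9 and 12.8 on day 6. Both later days lay below day 0. The change was -0.50 (SE 0.094, adjusted p = 0.00751) as given and -0.16 (adjusted p = 0.11) after scaling. OCI-Ly7 showed 9.58 and 9.66, then 10.2 and 8.39, then 7.53 and 8.57 FPKM, and the day 6 change did not pass (-0.23, adjusted p = 0.237). RPTOR, the defining subunit of mTORC1, and MLST8, shared by both complexes, fell in TMD8 as given (-0.46 and -0.41, adjusted p = 0.011 and 0.0119) and not after scaling. RICTOR, the defining subunit of mTORC2, stood in TMD8 at 1.40 and 1.49 FPKM on day 0, 1.42 and 1.15 on day 3 and 0.71 and 1.21 on day 6, and in OCI-Ly7 at 2.36 and 2.40, then 2.66 and 2.28, then 3.05 and 3.18. Day 6 lay below day 0 in TMD8, where the change did not pass (-0.33, adjusted p = 0.106), and above it in OCI-Ly7, where it passed only after scaling (0.29, adjusted p = 0.132; scaled 0.40, adjusted p = 0.0448).

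AKT1S1, which encodes PRAS40, an mTORC1 inhibitor that AKT phosphorylates, had the largest change of any member tested in either line. In OCI-Ly7 it stood at 30.2 and 22.4 FPKM on day 0, 39.3 and 34.6 on day 3 and 79.3 and 77.4 on day 6. All 3 days were apart, with day 6 far above the rest. Its mean went from 26.3 ± 5.5 to 78.4 ± 1.4 FPKM (SD, n = 2), 2.98-fold, a log2 change of 1.55 (SE 0.16, adjusted p = 0.0345; scaled 1.70, adjusted p = 0.0197); day 3 did not pass (0.49, adjusted p = 0.618). In TMD8 it stood at 32.5 and 27.2, then 26.4 and 28.9, then 27.6 and 32.1 FPKM. Those days overlapped, with a change of 0.001 (adjusted p = 0.997) that passed only after scaling (0.35, adjusted p = 0.0379). AKT1S1 overlaps TBC1D17 on the opposite strand. In OCI-Ly7 TBC1D17 went from 13.5 and 13.4 FPKM at day 0 to 22.2 and 21.8 at day 6 (0.67, adjusted p = 0.0351; scaled 0.82, adjusted p = 0.0197). In TMD8 TBC1D17 fell as given, by 0.47 on the log2 scale (adjusted p = 0.00366; scaled -0.12, adjusted p = 0.141). Reads of the overlapping genes cannot be told apart where counting ignores strand or transcripts merge, which the sources used here do not give. The OCI-Ly7 call held in 3 of 6 fits that left out 1 library (changes of 1.35 to 1.76) and failed without the second day 0 library or either day 6 library (adjusted p up to 0.149).

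**Figure D4:**
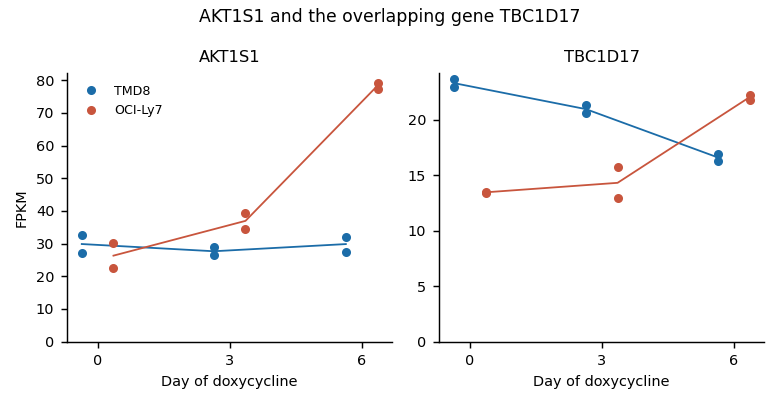
FPKM of AKT1S1 and of the overlapping gene TBC1D17 by day, with 1 point per library and lines through the means (blue TMD8, red OCI-Ly7; points are set slightly apart by line). In OCI-Ly7 AKT1S1 reaches 79.3 and 77.4 FPKM and TBC1D17 22.2 and 21.8 at day 6, while in TMD8 AKT1S1 stays level and TBC1D17 goes down.

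The Rag GTPases RRAGA and RRAGC, which bring mTORC1 to the lysosome when amino acids are present, fell in TMD8 as given (-0.19 and -0.29, adjusted p = 0.0373 and 0.0224), and their sign turned after scaling (0.17 and 0.04). In OCI-Ly7 they did not pass (-0.50 and -0.43, adjusted p = 0.0834 and 0.0605). RPS6KB1, the S6 kinase that mTORC1 activates, had the largest fall among the members tested in TMD8 on log2(FPKM + 1); as a ratio of mean FPKM, FOXO4 fell further (0.521 of its day 0 mean, against 0.539). It stood there at 11.5 and 11.0 FPKM on day 0, 7.99 and 7.73 on day 3 and 5.41 and 6.74 on day 6, and in OCI-Ly7 at 8.43 and 8.09, then 8.06 and 7.53, then 7.03 and 6.96. Each day lay below the one before in both lines. The TMD8 change was -0.80 (SE 0.11, adjusted p = 0.00325; scaled -0.47, adjusted p = 0.0132; lost after scaling without either day 0 library, adjusted p up to 0.0818), and the OCI-Ly7 change did not pass (-0.21, adjusted p = 0.163). Its paralog RPS6KB2 fell less in TMD8 as given (-0.23, adjusted p = 0.0321; scaled 0.13, adjusted p = 0.237), and the FPKM ratio of RPS6KB2 to RPS6KB1 went from 3.22 and 3.33 to 5.70 and 4.72. The translation repressors EIF4EBP1 and EIF4EBP2 fell in TMD8 as given (-0.38 and -0.45, adjusted p = 0.0145 and 0.00993) and not after scaling; in OCI-Ly7 EIF4EBP2 passed only after scaling (-0.26, adjusted p = 0.0477).

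Day 3 held fewer calls. In TMD8, 13 of 35 members fell as given and none rose, against 41.5% and 1.5% of all genes, and their median of -0.26 lay beside -0.27 over all. RPS6KB1 (-0.47, adjusted p = 0.0264), EIF4EBP1 (-0.43, adjusted p = 0.0233), PIK3CD (-0.43, adjusted p = 0.0269), PDPK1 (-0.42, adjusted p = 0.0418) and MTOR (-0.40, adjusted p = 0.0275) were among them. After scaling 0 of 35 passed in limma (2 at an unadjusted p under 0.05), as did 0.22% of all genes. Each of the 4 fits that left out a day 0 or a day 3 library called 0 of the 35 members as given. In OCI-Ly7 0 of 33 passed in limma under either scaling (1 at an unadjusted p under 0.05), beside 0.145% of all genes as given and 0.118% after scaling. Between days 3 and 6, 1 member passed in TMD8 (INPP4B, above; 7.84% of all genes) and 2 after scaling (11.7%), and 0 in OCI-Ly7 (8 at an unadjusted p under 0.05; 0.218% of all genes), where 5 passed after scaling (8.75% of all genes).

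Whether the day 6 changes differed was tested over all 12 libraries as the OCI-Ly7 change less the TMD8 change. This difference passed for 9 of 33 members, all towards OCI-Ly7, against 18.4% of all genes higher and 6.3% lower. Its median was 0.17 for the members, beside 0.16 over all 9688 genes, so most genes shared this direction as given. After scaling the medians were -0.019 and -0.021. Under both scalings 7 members passed, all higher (14.0% of genes). These were AKT1S1 (1.55, SE 0.21, adjusted p = 0.00334; scaled 1.35, adjusted p = 0.00165), FOXO1 (0.63, SE 0.11, adjusted p = 0.00761; scaled 0.51, adjusted p = 0.00342), RPS6KB1 (0.59, adjusted p = 0.0173; scaled 0.40, adjusted p = 0.0175) and PIK3CD (0.65, adjusted p = 0.0248; scaled 0.44, adjusted p = 0.0177). The other 3 were TSC1 (0.67, adjusted p = 0.0272), RICTOR (0.61, adjusted p = 0.0407) and INPP5D (0.56, adjusted p = 0.0345). In the 12 fits that left out 1 library, AKT1S1 and FOXO1 passed in 12 under each scaling and RPS6KB1 in 10 as given, failing without the first TMD8 or the second OCI-Ly7 library of day 0. PIK3CD and TSC1 passed in 6, INPP5D in 5 and RICTOR in 3; none of these held without either day 0 library of either line or the first TMD8 or second OCI-Ly7 library of day 6. After scaling 6 other members were lower in OCI-Ly7, relative to TMD8, with 19.0% of all genes: PIK3AP1 (-0.54, adjusted p = 0.0028), GSK3A (-0.60), PIK3CG (-0.42), RHEB (-0.47), RRAGA (-0.52) and RRAGC (-0.34). For PIK3R1 and GSK3B the difference was 0.05 and 0.04 as given (SE 0.11 and 0.12) and did not pass; their scaled differences were -0.14 and -0.15.

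**Figure D5:**
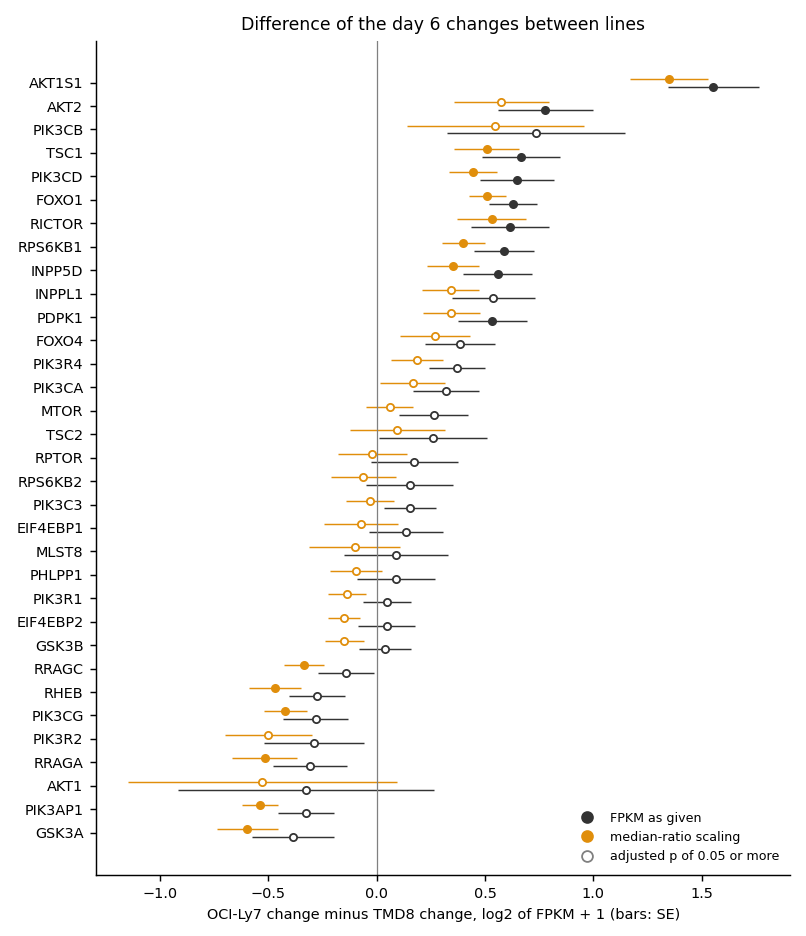
Difference of the day 0 to day 6 log2 changes, OCI-Ly7 minus TMD8, for the 33 pathway genes tested in both lines, with SE bars; black is FPKM as given, orange is after median-ratio scaling, and open circles have an adjusted p of 0.05 or more. AKT1S1 stands apart at 1.55 and 1.35, and PIK3R1 and GSK3B lie near 0.

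Genes around the pathway were counted in lists by function, beside the shares of all genes given above; a few genes stand in more than 1 list. Inputs from the B cell receptor and its co-receptors showed 16 of 18 tested genes lower and 1 higher in TMD8 as given, and 5 lower and 1 higher under both scalings. Of the falls under both, the largest were CD22, an inhibitory co-receptor (-1.06, adjusted p = 0.00136), PLCG2, the phospholipase below BTK (-0.98, adjusted p = 0.00156), the kinase SYK (-0.78, adjusted p = 0.00334) and the adaptor GAB2 (-0.70, adjusted p = 0.00301). The inhibitory Fc receptor FCGR2B rose (0.73, adjusted p = 0.00823). In OCI-Ly7 BTK was the gene of this list past the threshold under both scalings (-0.62, adjusted p = 0.0408). CD22 and PLCG2 differed between the lines (1.20 and 1.08, adjusted p = 0.002 and 0.00111).

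Of the other PI3K, AKT and phosphoinositide genes, 12 of 23 fell and 1 rose in TMD8 as given, and 5 and 1 under both scalings. They included PI4KA, a phosphatidylinositol 4-kinase (-0.91, adjusted p = 0.00246), and the class II PI3K gene PIK3C2B (-0.89, adjusted p = 0.00288), which went from 2.18 and 1.84 to 0.613 and 0.633 FPKM. In OCI-Ly7 the regulatory subunit PIK3R3 fell under both scalings (-0.49, adjusted p = 0.0429), from 12.6 and 12.9 to 8.54 and 9.03 FPKM. Known targets of FOXO factors went both ways in TMD8, with 12 of 18 lower and 3 higher as given and 3 each way under both scalings. Among the lower were KLF2 and TRIB3 (-0.78 and -0.85), and CCR7, GADD45A and SESN1 were higher (0.63, 0.62 and 0.51). KLF2 was low throughout, at 1.93 and 1.51 FPKM on day 0 and 0.386 and 0.784 on day 6. CCR7, a chemokine receptor, also rose in OCI-Ly7 (0.69, adjusted p = 0.0464), where 1 of 17 targets rose and 1 fell, CITED2 (-0.82, adjusted p = 0.0347).

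Downstream of mTORC1, translation and autophagy targets showed 12 of 16 lower in TMD8 as given, 2 of them under both scalings: EEF2K, the elongation factor 2 kinase (-1.15, adjusted p = 0.00146), and LARP1, which binds mRNAs of the translation machinery (-0.73, adjusted p = 0.0062). EEF2K went from 10.8 in both day 0 libraries to 4.07 and 4.58 FPKM, and stood in OCI-Ly7 at 8.69 and 9.10 and then at 8.15 and 7.97. Genes of the transcription programmes below mTORC1 showed 10 of 14 lower in TMD8, 4 of them under both scalings, with PHGDH, the first enzyme of serine synthesis (-0.995, adjusted p = 0.00216), and SREBF2, the regulator of cholesterol synthesis (-0.86, adjusted p = 0.00253). In OCI-Ly7 PSAT1, the next enzyme of serine synthesis, fell (-1.17, adjusted p = 0.0345), as did ASNS, asparagine synthetase (-0.67, adjusted p = 0.0347). Of the TFEB and lysosome genes 16 of 21 fell in TMD8 as given and 4 under both scalings, led by WIPI1, an autophagy protein (-1.16, adjusted p = 0.00301); in OCI-Ly7 2 of 21 fell, with MAP1LC3B under both (-0.56, adjusted p = 0.0347). The amino acid and energy sensors of mTORC1 had 14 of 33 lower and 1 higher as given in TMD8. After scaling 1 was lower and 6 higher, beside 1409 lower and 1611 higher of all 10456 genes. The 5 tested genes of mTORC2 and mTOR assembly had 3 lower as given and 0 after scaling in limma (0 at an unadjusted p under 0.05).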

How the data were processed

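Total RNA of TMD8 and OCI-Ly7 cells was sequenced, with 2 libraries for each of 3 days per line. Groups were taken from the sample titles, which give days 0, 3 and 6, as do the sample characteristics and the design text; other days stand in the treatment protocol, which was not followed. Per the labels' protocols, RNA was prepared with an RNeasy Plus mini kit and libraries with a TruSeq RNA kit. HISAT, StringTie and hg19 are named in the submitters' processing notes, while their versions are not given in the sources used here. FPKM was the unit the authors deposited for each library, with 25369 rows in the table of each line. Absolute depth is unknown; a relative depth was read from the ratios of small values.

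On log2(FPKM + 1), differences were tested in R 4.3.3 by limma 3.58.1 with a mean-dependent trend, so a log2 change understates the change of low genes. Genes entered where their 6 libraries of a line averaged 1 FPKM or more, with 3 residual degrees of freedom per line. The difference between the lines used the 12 libraries and genes passing that level in each. Benjamini-Hochberg adjustment ran over all genes tested, and calls had an adjusted p under 0.05. Every test was repeated after median-ratio scaling, and the fit was tested on simulated data. Alternatives were equal sums, no trend, a replicate block, a filter at 5 FPKM or none, 0.1 as pseudocount, a fit of the compared days and leaving out each library; median-ratio scaling with the replicate block was added after seeing the data. The members, lists (14 with 212 genes) and tests were chosen with earlier results of these data known. Per-library values were given for members past the threshold at day 6 under both scalings without overlap, for those past the line difference under both, and for AKT1, FOXO1, MTOR and PIK3CD; from other lists up to 5 genes per line. Overlaps between genes came from GENCODE v29 on GRCh38, by name, and promoters from RefSeq on GRCh38.p14. Some genes around the pathway are not reported here.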

Additional observations from a re-analysis of the deposited data

Results flagged for a closer look

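The change from day 0 to day 6 differed between the lines for 9 of 33 tested pathway genes in limma's test of the difference itself, OCI-Ly7 minus TMD8, on log2(FPKM + 1). Over all genes 18.4% were higher and 6.3% lower, so this count is near the share of all genes. Not all of these calls held when single libraries were left out, as given above. The differences were 0.65 for PIK3CD, 0.56 for INPP5D, 0.53 for PDPK1, 0.78 for AKT2, 0.63 for FOXO1, 0.67 for TSC1, 0.61 for RICTOR, 1.55 for AKT1S1 and 0.59 for RPS6KB1. PDPK1 (0.35, adjusted p = 0.0756) and AKT2 (0.58, adjusted p = 0.0748) did not pass after median-ratio scaling. With 2 libraries per group, no group could be examined for a single outlying library by a formal rule.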

How the results depend on the processing

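The number of pathway genes past the threshold depended on the scaling between libraries. For TMD8 at day 3 against day 0 (13) it was 0 with median-ratio scaling, equal sums, the replicate block and both scaling and block, and 7 with no filter, and 0 to 18 without 1 library. At day 6 against day 0 (26) it was 7 with median-ratio scaling, 17 with equal sums, 2 with scaling and replicate block together, and 4 to 26 without 1 library. At day 6 against day 3 (1) it was 2 with median-ratio scaling, 4 with equal sums, 0 with a filter at 5 FPKM or none, 0.1 as pseudocount, the block, the 2 days alone or scaling and block, and 0 without any 1 library. For OCI-Ly7 at day 6 against day 0 (4) it was 7 with median-ratio scaling, 0 with no filter, 2 with scaling and replicate block, and 0 to 6 without 1 library: 1 or 0 without a library of day 0 or day 6. At day 6 against day 3 (0) it was 5 with median-ratio scaling and 3 with equal sums; leaving out 1 library gave 0, as at day 3 against day 0. The line difference (9) came to 5 with a mean FPKM of at least 5 or the replicate block, and to 2 to 10 without 1 library. Over all genes, TMD8 day 3 (4492) gave 23 with median-ratio scaling, 36 with equal sums, 2705 with no filter, 13 with the block and 30 to 5763 without 1 library. TMD8 day 6 (5816) gave 3020 with median-ratio scaling and 2447 to 5891. TMD8 day 6 against day 3 (820) gave 1324 with equal sums, 359 with no filter, 58 with the block, 200 with the 2 days alone and 38 to 422. OCI-Ly7 day 6 (1252) gave 41 with no filter, 733 with the block and 17 to 1225; day 3 (16) gave 13 to 29; day 6 against day 3 (24) gave 964 with median-ratio scaling, 556 with equal sums and 27 to 48. The line difference (2396) gave 1391 with a mean FPKM of at least 5 and 1051 to 2849. Fewer genes are tested with a stricter filter, and fewer libraries remain when 1 is left out, its partner being assumed to vary like the other groups; other causes were not tested. Some members called in TMD8 at day 6 as given turned sign after median-ratio scaling. These were PIK3AP1 (0.01), PIK3C3 (0.007), RRAGA (0.17), RRAGC (0.038) and RPS6KB2 (0.13). Called or not, 10 of 35 tested members turned sign in TMD8, beside 3679 of 10456 genes. In OCI-Ly7 at day 6 scaling turned 4 of 33, beside 1682 of 11016 genes. AKT1 turned sign there without the first day 6 library (0.15, against -1.54 without the second). Replicate numbers did not pair the libraries: deviations of equal numbers correlated at -0.15 to 0.08 in TMD8 and -0.08 to 0.13 in OCI-Ly7, over genes. Absolute depth is unknown, so no floor can be given for genes at low FPKM, such as INPP4B, PHLPP2, RICTOR, FOXO3, FOXO4 and DEPTOR (0 to 3.2 FPKM).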
